A study of Mus musculus with 6 samples.

Results

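The 652 spermatogonia described here were cell barcodes of mouse testis selected on their own transcripts, out of 48939 barcodes in 6 libraries (1.33%). A barcode was taken when it held at least 3000 UMIs (unique molecular identifiers, each counting 1 captured RNA molecule), when under 2% of its UMIs came from Prm1, Prm2, Tnp1 and Tnp2, the genes that package sperm DNA, and when at least 3 of 10 spermatogonial genes had a UMI. It was dropped when it held more than 3 UMIs of Meiob, Dmc1 and Prss50 together, or more than 2 UMIs of Piwil1, which mark cells already in meiosis. Of 21272 barcodes with 3000 UMIs or more, 10128 were under the protamine limit, 1153 had 3 gate genes, 708 also met the limit on meiotic genes and 652 met every rule. No doublet caller was run.

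The testes came from 8-week-old wild-type C57BL/6 males given HFD (high-fat diet) or LFD (low-fat diet) for 2 weeks, with 3 libraries of dissociated cells and, by the study's methods, 3 mice per diet, and no other allele or agent in either group. The strain is C57BL/6N in those methods. The labels tie no library to an animal, so p-values measure the spread between these libraries, which may be partly technical. Diets follow the sample titles. The deposited file names contradict them in all 6 cases, and so does the study's own list of barcode numbers. The text therefore speaks of libraries labelled HFD or LFD. If the file names are right, every diet difference below changes sign while its p-value stays as printed.

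Spermatogonia are the dividing germ cells at the base of the seminiferous tubule. The undifferentiated ones include the stem cells, which answer to the growth factor GDNF through the receptor pair Gfra1 and Ret. Retinoic acid turns them into differentiating cells that carry the receptor Kit, and it also switches on Stra8. Later the cells replicate their DNA once more and enter meiosis as spermatocytes. In pachytene spermatocytes, later in meiotic prophase, the X and Y chromosomes are silenced.

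The spermatogonia held 9177267 UMIs, 2.14% of the 429495465 UMIs of the series, with a median of 10590.5 UMIs and 4123 genes per barcode. Median depth lay between 9531.5 and 12605 UMIs across libraries. Of the 652 barcodes, 24 also passed a gate for round spermatids and 3 a gate for Sertoli cells, the supporting cells of the tubule. These 27 barcodes, called overlap barcodes here, had a median of 48680 UMIs against 10378 for the other 625 and carried 19.0% of all spermatogonial UMIs. Levels are therefore given with and without them wherever they change a value or a direction. They were left out of spermatogonia only, and the later stages used for comparison were not trimmed in the same way. Across libraries, 284 barcode sequences occurred more than once. No sequence occurred in spermatogonia of 2 libraries, and 9 spermatogonia shared one with another kind of barcode elsewhere.

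Later stages were gated in the same libraries for comparison. Early meiotic barcodes (989) held over 3 UMIs of Meiob, Dmc1 and Prss50 and at most 2 of Piwil1, pachytene barcodes (2447) held over 2 of Piwil1, and round spermatids (3311) held at least 10 UMIs of acrosome genes.

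Near the limits of the gate, 104 members had exactly 3 gate genes (median 6518.5 UMIs), while 255 barcodes that met the other rules had 2 (median 30114 UMIs). There were 110 members with exactly 3 UMIs of the early meiotic genes and 95 barcodes just outside with 4, and Stra8 was detected in 63.6% and 70.5% of them. Barcodes on both sides of that limit were similar in depth, with medians of 8284.5 and 7312 UMIs. At the Piwil1 limit, 48 members had 2 UMIs and 18 barcodes just outside had 3.

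Levels are in CPM, the UMIs of a gene or list per 1000000 UMIs summed over the spermatogonia of a library, and means are over the 6 libraries. Markers of other testis cells were low except as stated here. The 7 Leydig cell markers summed to between 2.25 and 7.77 CPM over the libraries, with Cyp17a1, Hsd3b1, Hsd3b6, Insl3 and Lhcgr at 0. The 9 macrophage markers summed to between 2.05 and 5.55, with C1qa, C1qc, Lyz2 and Csf1r at 0, and the 4 erythroid markers to between 0 and 0.563. The 5 T cell markers summed to between 5.55 and 15.7 (Cd3g and Cd8a at 0), the 5 endothelial markers to between 0.843 and 7.77 and the 9 peritubular and stromal markers to between 6.84 and 11.4 (Col3a1 and Tcf21 at 0). The 13 Sertoli markers were uneven, from 8.20 to 294 CPM with the highest value in HFD replicate 1, and Amh and Fshr were at 0. Spermatid transcripts were present in every library. Prm1, Prm2, Tnp1, Tnp2 and Odf1 summed to between 2964.5 and 6133 CPM in spermatogonia, with means of 5261 in spermatogonia, 7501 in early meiotic, 2859.7 in pachytene and 7114 in Sertoli barcodes. The 6 round spermatid markers summed to between 434 and 1450.6 CPM in spermatogonia, highest in HFD replicate 2, and to a mean of 531 in early meiotic barcodes. Their source was not tested.

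The 10 genes of the gate chose these cells, so their levels describe the members and support nothing. Uchl1, a deubiquitinase abundant in spermatogonia (chr5:66676091-66687234, GRCm38), was the most abundant at 970, 346 and 488 in the libraries labelled HFD and 954, 568 and 835 in those labelled LFD. Crabp1, which binds retinoic acid in the cytoplasm (chr9:54764748-54773110), stood at 270, 94.3, 169, 255, 189 and 265 in the same order. HFD replicate 2 was the lowest for both genes. These levels include the overlap barcodes, without which Crabp1 stood at 140 in HFD replicate 2. Dmrt1, a transcription factor that holds germ cells in the mitotic programme (chr19:25505618-25604329), varied little, from 148 to 191.

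Zbtb16, a transcription factor needed to maintain the stem cells (chr9:48654297-48836222), lay between 35.5 and 74.6. Sall4, a zinc finger factor of undifferentiated germ cells (chr2:168748332-168767943), lay between 36.9 and 124. The RNA-binding gene Nanos3 (chr8:84173731-84185217) was the rarest, between 11.6 and 37.9. For all 3 genes, HFD replicate 2 held the lowest value and the highest lay in HFD replicate 1 or LFD replicate 3. Kit (chr5:75574916-75656722) measured 84.3, 97.1 and 102 in the libraries labelled HFD and 137, 109 and 114 in those labelled LFD, so the diets did not overlap, although the edgeR test described below did not call it.

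Stra8, a gene of meiotic entry that retinoic acid switches on (chr6:34920163-34939344), lay between 209 and 391. Sohlh1, a factor that drives differentiation (chr2:25842995-25847248), lay between 36.2 and 151. The X-linked homeobox gene Rhox13 (chrX:38121219-38129967) lay between 82.2 and 185. Of the 10 gate genes, 8 were higher than in early meiotic barcodes in all 6 libraries, as were 22.9% of all genes at 5 CPM or more in either stage. Stra8 and Rhox13 were the exceptions. Stra8 averaged 293 in spermatogonia and 410 in early meiotic barcodes, and Rhox13 averaged 122 and 206. All 10 means were lower in pachytene barcodes, where Uchl1 averaged 25.1 and each of the other 9 at most 3.46.

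**Figure D1:**
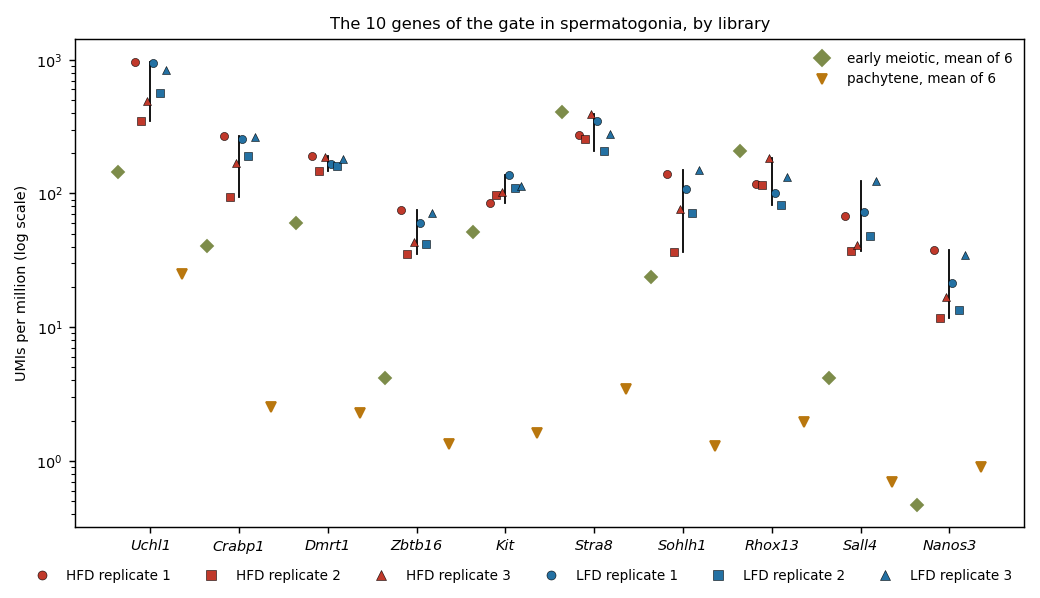
CPM (log scale) of the 10 gate genes in spermatogonia, 1 symbol per library, with the black line spanning the range, and means over the 6 libraries in early meiotic (diamonds) and pachytene barcodes (triangles pointing down). Uchl1 is the highest gene at 346 to 970, and the early meiotic mean lies above the spermatogonial mean for Stra8 and Rhox13.

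A gene was more often seen in deeper barcodes. Uchl1 had a UMI in 92.8% of spermatogonia and Nanos3 in 16.7%. In round spermatids, which should lack both and had a median of 33926 UMIs, the shares were 12.4% and 5.98%. After each barcode was thinned to 3000 UMIs, they became 73.8% and 5.06% in spermatogonia and 1.18% and 0.453% in round spermatids. The stem cell receptor gene Gfra1 was detected in 7.06% of spermatogonia and 5.77% of round spermatids before thinning, and in 2.45% and 0.483% after it.

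Promoter windows are shown for 3 gate genes, the differentiation factor Sohlh1, the receptor Kit and the retinoic acid target Stra8. They come from RefSeq (GRCm38.p6), which matched 7 of the 10 genes, and run from 250 bases before the annotated start to 50 after it. Dmrt1, Zbtb16 and Sall4 had no entry. Capitals in the Sohlh1 and Kit windows mark the E-box CANNTG, the site type bound by basic helix-loop-helix factors, and in the Stra8 window the half-site AGGTCA of retinoic acid receptors. Both strands were searched.

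Sohlh1, chr2:25847199-25847498, minus strand: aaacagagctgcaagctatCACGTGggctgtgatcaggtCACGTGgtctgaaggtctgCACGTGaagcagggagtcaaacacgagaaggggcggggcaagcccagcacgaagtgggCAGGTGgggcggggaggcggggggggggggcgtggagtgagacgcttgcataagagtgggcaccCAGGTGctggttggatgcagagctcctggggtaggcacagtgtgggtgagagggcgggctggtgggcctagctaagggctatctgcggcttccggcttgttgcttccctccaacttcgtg
Kit, chr5:75574737-75575036, plus strand: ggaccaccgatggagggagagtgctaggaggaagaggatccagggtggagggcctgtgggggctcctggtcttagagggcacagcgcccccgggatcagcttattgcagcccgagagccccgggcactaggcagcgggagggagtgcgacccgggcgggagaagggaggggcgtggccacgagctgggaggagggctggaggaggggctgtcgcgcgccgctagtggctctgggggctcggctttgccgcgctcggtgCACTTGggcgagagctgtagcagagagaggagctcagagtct
Stra8, chr6:34920698-34920997, plus strand: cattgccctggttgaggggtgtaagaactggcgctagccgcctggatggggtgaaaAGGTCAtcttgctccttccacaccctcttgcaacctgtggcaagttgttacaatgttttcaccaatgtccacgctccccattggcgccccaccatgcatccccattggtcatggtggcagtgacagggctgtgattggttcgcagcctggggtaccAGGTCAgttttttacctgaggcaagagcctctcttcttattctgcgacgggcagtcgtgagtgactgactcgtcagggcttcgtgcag

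The Sohlh1 window held 5 E-boxes and the Kit window 1, against a median of 1 over all 32851 windows of this length, of which 72.3% held at least 1. The Stra8 window held 2 half-sites, whose first bases lay at -194 and -38 with the RefSeq start as 0, and 16.3% of all windows held any. That window lies inside the gene span given above for Stra8, because the RefSeq start is downstream of the start used there. Among the 7 matched genes, 4 had an E-box and 2 (Stra8 and Sohlh1) a half-site. In Sohlh1 the half-site overlaps an E-box. These are matches of letters and not binding sites.

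Outside the gate genes, the 20 genes with the largest ratio to all other barcodes of at least 3000 UMIs were Ppp1ca, Zrsr2, Rpl36a, Ftl1, Cenpa, Ptma, Tubb5, Hist1h2ap, Scaf11, Marcksl1, Hmgb3, Gsr, Auts2, Cdca7, Bax, Ncl, D10Wsu102e, Psme1, Selenoh and Psme2. They were ranked by that ratio, so it is a description. Ppp1ca, a protein phosphatase catalytic subunit, stood between 178 and 362 CPM in spermatogonia and between 4.83 and 13.4 in the other barcodes. Cenpa, the centromeric histone variant, stood between 133 and 297 against 2.90 to 7.29. Early meiotic barcodes alone held much of both, with means of 157 for Ppp1ca and 110 for Cenpa. Psme1 and Psme2, which form a proteasome activator, averaged 143 and 133 in spermatogonia, 37.7 and 29.2 in early meiotic and 3.45 each in pachytene barcodes.

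Of these 20 genes, 17 were also higher than in early meiotic barcodes in all 6 libraries, and 18 once the overlap barcodes were left out, against 22.9% and 26.5% of all genes at 5 CPM or more in either stage. Early meiotic barcodes were among those that the ranking compared with, so nothing is read from these counts. Tubb5, a beta-tubulin, had the largest ratio to early meiotic barcodes among these 20, with 232 ± 129 (SD, n = 6) against a mean of 9.43. It ranged from 78.6 to 416, and from 118 to 440 without the overlap barcodes. Ftl1, the ferritin light chain, averaged 600.4 ± 225 against 134. Gsr, glutathione reductase, averaged 184 ± 42.1 against 33.6. Zrsr2, Rpl36a and Hmgb3 lie on the X chromosome, as did 8 of the first 40 genes, while 3.08% of the 9571 genes ranked were X-linked.

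Of the 22 genes of the undifferentiated state, 14 were higher than in early meiotic barcodes in all 6 libraries, 1 was lower and 7 were mixed, with or without the overlap barcodes. Among all 12117 genes at 5 CPM or more in either stage, 22.9% were higher and 21.3% lower in all 6 libraries (26.5% and 30.8% without the overlap barcodes). The 2 stages were separated by the gate itself, so nothing is read from these counts or from those of the lists that follow. The values that follow leave out the overlap barcodes, a choice made with the data seen.

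Foxo1, a transcription factor of stem cell maintenance, averaged 79.4 ± 10.2 (SD, n = 6) in spermatogonia and 22.9 in early meiotic barcodes. The transcription factor Sox3 averaged 60.3 ± 18.7 and 14.2, and Egr4, an early growth response gene, 48.7 ± 18.4 and 1.10. Lin28a, which blocks maturation of let-7 microRNAs, averaged 30.7 ± 9.67 and 0.191. Ret averaged 14.3 ± 5.42, Upp1 22.0 ± 15.9 and Foxc2 6.07 ± 2.94, and none of the 3 had a UMI in early meiotic barcodes. Gfra1 averaged 12.3 ± 6.17 and 0.822.

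Several stem cell genes were close to the limit of detection. Nanos2 averaged 0.933 ± 0.905, Pax7 0.687 ± 0.761, Eomes 2.71 ± 1.25 and Neurog3 3.01 ± 2.00. Tspan8 (4.99 ± 2.26), Bcl6b (4.57 ± 2.70), Utf1 (6.02 ± 3.42), Lhx1 (7.24 ± 7.15), Etv5 (7.32 ± 2.99), Dusp6 (9.86 ± 3.71), Tcl1 (10.8 ± 4.70) and Cdh1 (2.25 ± 3.07) were also low. Id4 did not separate the stages, at 21.5 ± 3.41 in spermatogonia, 20.6 in early meiotic and 124 in pachytene barcodes. Taf4b was the only gene of the list that was lower than in early meiotic barcodes in all 6 libraries, at 93.2 ± 27.6 against 170.4.

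Among 5 genes of differentiating spermatogonia, Ccnd2, a cyclin of the G1 phase, averaged 93.7 ± 30.9 in spermatogonia and 0.779 in early meiotic barcodes. Dnmt3b, a de novo DNA methyltransferase, averaged 72.9 ± 16.3 and 7.31. The retinoic acid receptor gene Rarg averaged 16.8 ± 6.37 and 10.5, and Sohlh2, the partner of Sohlh1, 33.4 ± 4.95 and 24.6. Dmrtb1 depended on the overlap barcodes, with a mean of 270 with them and 166 ± 39.6 without them, against 212 in early meiotic barcodes. Without them it turned from mixed to lower in all 6 libraries. Of the 5 genes, 3 were higher in all 6 libraries with or without the overlap barcodes, as were 22.9% and 26.5% of all genes.

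In the retinoic acid pathway, 19 of 21 genes were detected, and 6 were higher and 3 lower than in early meiotic barcodes in all 6 libraries without the overlap barcodes. Of all genes, 26.5% were higher and 30.8% lower. The nuclear receptor genes Rara (19.3 ± 7.04 against 6.45), Rxra (18.9 ± 3.63 against 5.13) and Rxrb (45.0 ± 11.1 against 36.0) were on the higher side, with Rarg and the gate gene Crabp1. Aldh1a2, which makes retinoic acid, was lower at 33.4 ± 4.33 against 62.2, as was Rdh10, the enzyme of the step before it, at 6.25 ± 1.69 against 17.4. Gm4969 was lower at 14.0 ± 7.85 against 41.7. Rec8, a meiotic cohesin gene, stood at 18.3 ± 3.85 and 32.0 in mixed order. Cyp26a1 (3.04 ± 1.63) and Cyp26b1 (3.35 ± 2.38), which degrade retinoic acid, Rarb, Crabp2, Stra6, Aldh1a1, Aldh1a3 and Dhrs3 were each under 4 CPM. Rxrg and Cyp26c1 were at 0.

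Meiotic genes had transcripts in spermatogonia. Of 20 meiotic entry genes, 18 were lower than in early meiotic barcodes in all 6 libraries, with or without the overlap barcodes, and Rec8 and Mei4 (12.4 to 24.9 against a mean of 15.4) were mixed. Of all genes, 21.3% were lower with the overlap barcodes and 30.8% without them. The gate capped Meiob, Dmc1 and Prss50 in spermatogonia and required them in early meiotic barcodes, so nothing is read from this count. Sycp3, of the axis that holds sister chromatids, measured 280, 409 and 327 CPM in the libraries labelled HFD and 262, 295 and 258 in those labelled LFD, against a mean of 1672 in early meiotic barcodes. Sycp1, of the synaptonemal complex that joins homologous chromosomes, averaged 507 ± 130 against 1688. Sycp2 averaged 124 ± 53.2 against 764, Hormad1 94.2 ± 31.7 against 567 and the meiotic cohesin gene Smc1b 570 ± 126 against 1161. Spo11, which makes the meiotic DNA breaks, averaged 11.4 ± 3.36 against 59.3.

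The remaining synaptonemal and axis genes also stood on the lower side. Syce1 averaged 186 ± 38.1 against 340, Syce2 275 ± 35.1 against 485, Syce3 123 ± 27.1 against 391 and Tex12 100.2 ± 12.7 against 289. Stag3 averaged 132 ± 37.1 against 258 and Hormad2 15.6 ± 3.74 against 68.8. Meioc and Ythdc2, whose proteins act together to start the meiotic programme, averaged 196 ± 115 against 476 and 98.5 ± 37.2 against 217. Msh4 (3.75 ± 2.85 against 19.3), Msh5 (10.6 ± 6.01 against 61.5), Mei1 (16.9 ± 3.97 against 37.6) and M1ap (66.2 ± 16.4 against 125) completed the list.

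**Figure D2:**
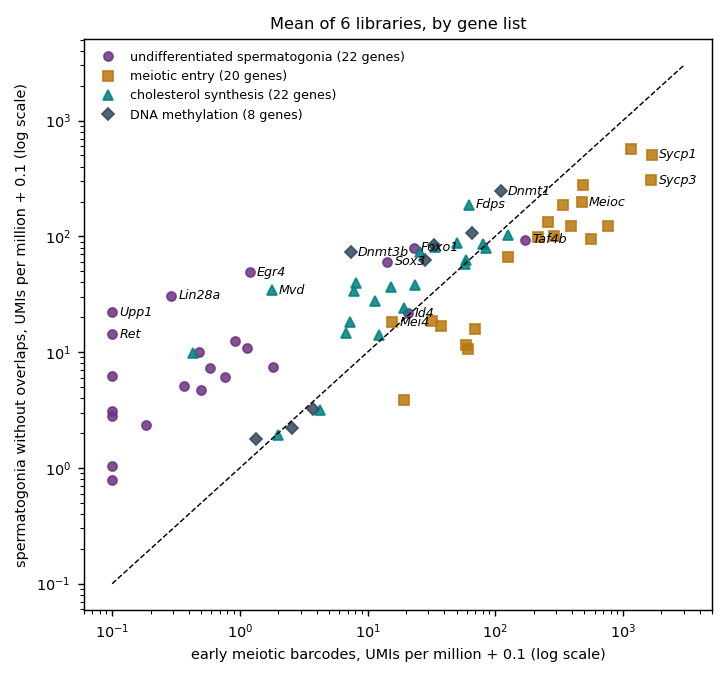
Mean CPM plus 0.1 over the 6 libraries in early meiotic barcodes (horizontal, log scale) and in spermatogonia without the overlap barcodes (vertical, log scale), 1 symbol per gene of 4 lists, with the dashed line at equal levels. Meiotic entry genes such as Sycp3 (305 against 1672) lie below the line, and Ret and Upp1, with no UMI in early meiotic barcodes, lie at the left edge.

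Sex-linked germ cell genes had transcripts in both stages and few in pachytene barcodes. Of 20 genes, 18 were detected, with Rbmy and Sry at 0, and the list summed to 1430 ± 190 CPM in spermatogonia (all members), 1855 ± 254 in early meiotic and 58.0 ± 40.2 in pachytene barcodes. Taf7l, an X-linked subunit of the general transcription machinery in germ cells, averaged 421 ± 83.4 in spermatogonia without the overlap barcodes, 513 in early meiotic and 8.01 in pachytene barcodes. Usp26 averaged 302 ± 31.6, 272 and 4.95, Nxf2 201 ± 35.2, 177 and 5.24, Tex11 169 ± 43.5, 179 and 2.48 and Tex13b 148 ± 46.7, 111 and 1.19.

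Among the Y-linked members, Uba1y was the only gene of the list higher than in early meiotic barcodes in all 6 libraries, at 129 ± 11.9 against 83.9. Eif2s3y, a translation factor gene, was lower at 105 ± 29.0 against 148, as were Usp9y at 33.8 ± 12.8 against 62.1, Zfy1 at 9.23 ± 3.21 against 34.8 and Zfy2 at 4.70 ± 2.12 against 33.3. Ddx3y (39.9 ± 16.6), Kdm5d (8.64 ± 3.78) and Uty (12.6 ± 2.38) were mixed. Of the other X-linked members, Tex16 (51.3 ± 18.6 against 111) was lower and Tktl1 (32.6 ± 10.0), Pramel3 (2.53 ± 1.73) and Tex13a (4.17 ± 1.10) were mixed. Fthl17a averaged 16.5 with the overlap barcodes and 3.60 ± 1.23 without them, against 10.5. With the overlap barcodes no gene of the list was higher in all 6 libraries and 7 were lower, and without them 1 and 7. Of all genes, 22.9% were higher and 21.3% lower with them, and 26.5% and 30.8% without them.

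Other germ cell programmes differed gene by gene. Dazl, the RNA-binding regulator of germ cell fate, averaged 1129 ± 139 without the overlap barcodes and 1469 in early meiotic barcodes, and the helicase gene Ddx4 averaged 291 ± 30.4 and 343. The piRNA pathway gene Mael averaged 291 ± 41.0 and 386. Tex101, a surface protein gene, averaged 279 ± 46.1 and 1314. Of the 11 germ line genes, 4 were lower and 4 higher in all 6 libraries, against 30.8% and 26.5% of all genes. The higher ones, named after their values were seen, were Tex19.1, Tdrd1, Nanos1 and Piwil4.

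Of 8 DNA methylation genes, 5 were higher than in early meiotic barcodes in all 6 libraries and none lower, where 26.5% of all genes were higher and 30.8% lower. The maintenance methyltransferase gene Dnmt1 measured 202, 257 and 254 in the libraries labelled HFD and 254, 244 and 253 in those labelled LFD, against a mean of 110 in early meiotic barcodes. Uhrf1, which guides it, averaged 106 ± 9.09 against 65.2, Tet3, which oxidises methylated cytosine, 84.3 ± 13.9 against 33.0, and the other 2 were Dnmt3a and Dnmt3b.

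Of 22 genes of cholesterol synthesis and uptake, 13 were higher than in early meiotic barcodes in all 6 libraries and none lower. Of all genes, 26.5% were higher and 30.8% lower, the shares to set beside each count in this paragraph. Fdps averaged 187 ± 44.6 against 61.7, while Idi1 (103 ± 38.9 against 125) and Fdft1 (58.7 to 107 against a mean of 80.6) were mixed. Fatty acid oxidation was divided, with 8 of 20 genes higher and 2 lower. Hadhb was lower at 127 ± 9.90 against 148 and Etfa at 106 ± 24.0 against 163, Hadha was mixed at 135 ± 16.2 against 151, and Eci1 was higher at 93.5 ± 12.2 against 40.8. Of 15 detected PPAR target and lipid handling genes, 4 were higher and 2 lower, and abundant members included Cpt1a at 14.5 ± 2.56, Plin2 at 10.5 ± 3.38 and Ppard at 9.07 ± 3.07.

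Of 20 S phase genes, 11 were higher in all 6 libraries and 2 lower, among the former the replication helicase gene Mcm7 at 173 ± 19.5 against 94.5, while Hells (630 ± 49.0 against 573), Slbp (301 ± 42.6 against 329) and Pcna (202 ± 41.7 against 202) were mixed. With the overlap barcodes 10 were higher and 5 lower. Of all genes, 26.5% were higher and 30.8% lower without the overlap barcodes, and 22.9% and 21.3% with them. Of 19 genes of the G2 and M phases, 3 were higher and 5 lower. Hmgb2 was lower at 1535 ± 59.0 against 1866, Top2a was lower at 503 ± 131 against 829, and Cenpf (947 ± 159 against 836) and Mki67 (340 ± 99.4 against 304) were mixed. Of 16 cyclins and inhibitors, 6 were higher and 4 lower in all 6 libraries, and 6 were mixed. Among them, Cdkn2a averaged 254 ± 34.3 against 129 and Ccnd1 168 ± 16.1 against 74.8. Ccnb1 averaged 176 ± 27.9 against 101 and Ccna2 129 ± 10.3 against 63.0, the last in mixed order. The number of genes per barcode at 3000 UMIs was similar, with medians of 1766 in spermatogonia, 1805 in early meiotic and 1668 in pachytene barcodes.

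Testis isozymes of energy metabolism rested in part on the overlap barcodes. Ldhc, the germ cell lactate dehydrogenase, averaged 2284 CPM with them and 1256 ± 453 without them, against 2095 in early meiotic barcodes. The somatic form Gapdh averaged 484 ± 104 without them against 173 in early meiotic barcodes, Cox6b1 397 ± 94.2 against 187, and the testis form Cox6b2 144 ± 38.7 against 305. Of 14 isozyme genes, 4 were higher and 6 lower in all 6 libraries without the overlap barcodes, and 3 and 1 with them. Of all genes, 26.5% were higher and 30.8% lower without them, and 22.9% and 21.3% with them.

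Among receptors and surface proteins, 8 of 15 detected genes were higher than in early meiotic barcodes in all 6 libraries and none lower. Of all genes, 26.5% were higher and 30.8% lower, also the shares to set beside the stress genes below. The integrin subunit gene Itgb1 averaged 144 ± 21.6 against 109 in mixed order. The growth factor receptor gene Igf1r averaged 73.8 ± 9.41 against 33.2 and the tetraspanin gene Cd9 69.8 ± 10.6 against 24.1. Csf1r was at 0. Stress genes were higher in 8 of 20 cases and lower in 2, with the chaperone genes Hspe1 at 613 ± 79.0 against 231 and Hspd1 at 377 ± 38.1 against 300.2, Hspa9 at 182 ± 23.4 against 217 and Mthfd2 at 105 ± 16.3 against 61.3. The immediate early genes were low, with Jun at 39.2 ± 11.6, Fos at 34.1 ± 12.9, Egr1 at 28.4 ± 8.51 and Dusp1 at 18.3 ± 3.44.

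Mitochondrially encoded mRNAs, the 13 transcripts made from mitochondrial DNA, took 6.01 ± 0.870% (SD, n = 6 libraries) of spermatogonial UMIs. The values were 6.06, 5.65 and 6.82% in the libraries labelled HFD and 5.75, 4.68 and 7.09% in those labelled LFD. Early meiotic barcodes held 5.85%, pachytene barcodes 3.77% and round spermatids 0.420%. The gate did not use these transcripts, so the stages were compared within libraries by a two-sided exact sign-flip test, for which p cannot fall below 0.03125, with Benjamini-Hochberg adjustment over 6 stage comparisons.

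Spermatogonia exceeded early meiotic barcodes by 0.152 percentage points (higher in 4 of 6 libraries, exact p = 0.562, adjusted p = 0.562). Without the overlap barcodes the share rose to 7.18 ± 0.886% and the difference to 1.33 points, higher in 6 of 6 libraries (exact p = 0.03125, adjusted p = 0.0375). Only spermatogonia were trimmed for this value, while the early meiotic mean stayed at 5.85%, so the 2 sides were not treated alike. The difference also passed the threshold without a rule against overlap barcodes, when barcodes rather than UMIs were weighted equally (1.26 points, exact p = 0.03125, adjusted p = 0.0469) and when 4 gate genes were required (0.661 points, exact p = 0.03125, adjusted p = 0.0469), so the call depended on the weighting and on the gate. Against pachytene barcodes the difference was 2.23 points (higher in 5 of 6 libraries, exact p = 0.0625, adjusted p = 0.0938) and 3.41 points without the overlap barcodes (6 of 6, exact p = 0.03125, adjusted p = 0.0375). LFD replicate 3 was the exception, where pachytene barcodes held 7.16% and had a median of 6294 UMIs against 14769 to 43282 in the other libraries. When each barcode counted equally instead of each UMI, the difference turned to -1.94 points (exact p = 0.75, adjusted p = 0.75). By that weighting LFD replicate 3 held 23.5% in pachytene barcodes and 9.25% in spermatogonia. Spermatogonia were also lower in HFD replicate 3 and LFD replicate 2, and higher in the other libraries.

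X-linked genes, leaving out the gate gene Rhox13, took 1.79 ± 0.132% of spermatogonial UMIs of placed genes, against 1.90% in early meiotic and 0.185% in pachytene barcodes. The ratio to pachytene barcodes was 9.64. Spermatogonia were 1.60 points above pachytene barcodes, higher in 6 of 6 libraries (exact p = 0.03125, adjusted p = 0.0625), and 1.74 points above them without the overlap barcodes (exact p = 0.03125, adjusted p = 0.0375). The unadjusted p is the smallest the test can give. Against early meiotic barcodes the difference was -0.114 points (higher in 1 of 6 libraries, exact p = 0.156, adjusted p = 0.188) and turned to 0.0288 without the overlap barcodes (exact p = 0.688, adjusted p = 0.688). For comparison, the Y-linked share was 0.0482% in spermatogonia, 0.0549% in early meiotic and 0.00787% in pachytene barcodes.

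The 83 cytosolic ribosomal protein genes took 13.5% of spermatogonial UMIs, 11.0% in early meiotic, 6.64% in pachytene and 5.14% in round spermatid barcodes. The spermatogonial values were 16.2, 10.1 and 11.9% in the libraries labelled HFD and 15.0, 12.7 and 14.8% in those labelled LFD, so HFD replicates 2 and 3 were the lowest. The share exceeded early meiotic barcodes by 2.51 points (6 of 6 libraries, exact p = 0.03125, adjusted p = 0.0625) and pachytene barcodes by 6.82 points (6 of 6 libraries, exact p = 0.03125, adjusted p = 0.0625). Without the overlap barcodes the differences were 4.14 and 8.46 points (exact p = 0.03125 and adjusted p = 0.0375 for each). Rps24, Rpl13 and Rpl32 were the most abundant, at 4271 ± 312, 4058 ± 645 and 4006 ± 562 CPM without the overlap barcodes. Nuclear genes of the respiratory chain summed to 27666 CPM in spermatogonia and 25605 in early meiotic barcodes, led by Cox4i1 at 1590 ± 325 against 1016 in the same order.

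**Figure D3:**
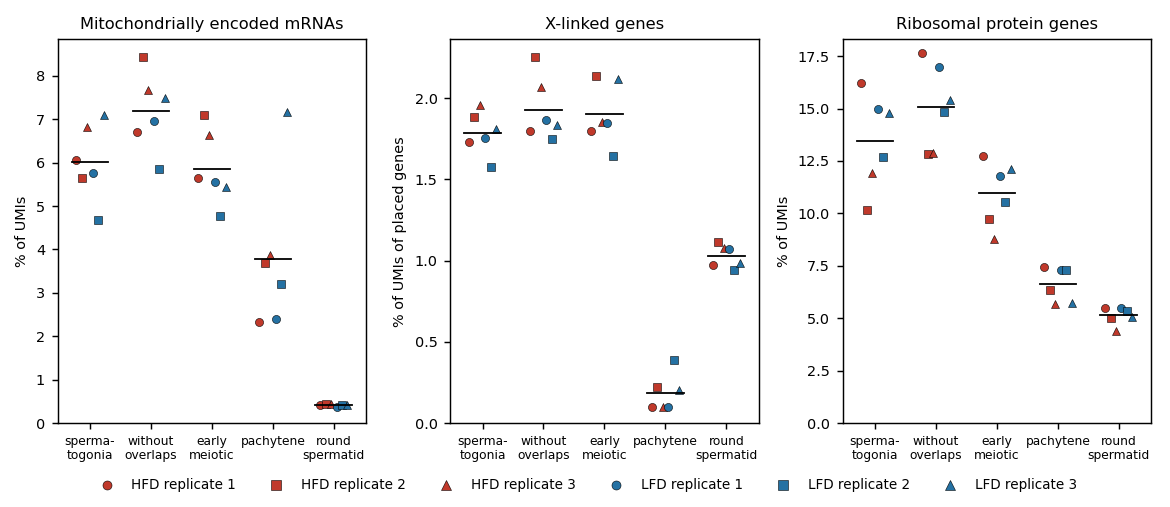
Percent of UMIs from mitochondrially encoded mRNAs, X-linked genes and ribosomal protein genes in spermatogonia, in spermatogonia without the overlap barcodes and in 3 later stages, 1 symbol per library, with black bars at the mean of 6. X-linked genes drop to 0.185% in pachytene barcodes, and LFD replicate 3 stands at 7.16% for mitochondrially encoded mRNAs in that stage.

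The members were divided into states by genes known from undifferentiated cells and by Stra8. The Stra8 class is not a count of cells entering meiosis. Undifferentiated-gene barcodes held at least 2 UMIs over Gfra1, Id4, Etv5, Ret, Lhx1, Nanos2 and Eomes and no Stra8. Stra8 barcodes held Stra8 and fewer than 2 of the others. There were 60 undifferentiated-gene barcodes (9.20%), 299 Stra8 barcodes (45.9%), 21 with both (3.22%) and 272 with neither (41.7%). The classes are cut from UMI counts and depend on detection. After thinning to 3000 UMIs, 19 undifferentiated-gene and 211 Stra8 barcodes were left and 421 held neither.

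The overlap barcodes decided levels in the undifferentiated-gene state. With them, mitochondrially encoded mRNAs summed to 34331 CPM in the pooled barcodes of that state, and without them to 72602. They are left out of the values that follow, which rest on 53 undifferentiated-gene and 293 Stra8 barcodes. This choice was made after the data were seen. With 4 to 18 undifferentiated-gene barcodes per library, low levels in that state rest on few UMIs, and no test was made. The share of all genes whose libraries did not overlap between the states is not given. Nothing is therefore read from the separations named below.

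Foxc2, a transcription factor of quiescent stem cells, measured 30.7, 92.1 and 33.2 CPM in the undifferentiated-gene barcodes of the libraries labelled HFD and 56.0, 56.9 and 22.1 in those labelled LFD, and at most 2.16 in Stra8 barcodes of any library. Tcl1, a coactivator of the kinase Akt, lay between 40.9 and 146 in the former and at most at 1.26 in the latter. Dusp6, a phosphatase induced by ERK signalling, lay between 43.9 and 133 against at most 6.47. No library overlapped for these 3 genes.

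Egr4 averaged 162 ± 61.9 in undifferentiated-gene and 22.8 ± 12.4 in Stra8 barcodes, and the gate gene Zbtb16 averaged 199 ± 41.9 and 36.0 ± 8.43. The ranges of both were apart. Ccnd2 averaged 424 ± 227 and 72.2 ± 28.4, with overlap, since HFD replicate 3 had 99.5 in the first state and LFD replicate 3 had 113 in the second. Foxo1 averaged 123 ± 41.8 and 71.5 ± 10.4 and Lin28a 44.1 ± 27.4 and 26.4 ± 3.98, each with overlap. Sox3 stood at 57.1 ± 29.5 and 66.6 ± 22.5 and did not separate the states. The 15 list genes that did not define the state summed to 771 ± 120 against 311 ± 42.4.

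On the Stra8 side, Kit measured 136, 186 and 140.3 in the libraries labelled HFD and 219, 167 and 149 in those labelled LFD, against 0 to 30.7 in undifferentiated-gene barcodes. Dnmt3b averaged 97.7 ± 29.7 against 18.1 ± 14.7, and Crabp1 averaged 309 ± 110 against 66.2 ± 25.3. Tex101 averaged 324 ± 80.6 against 117 ± 39.2. For all 4 genes the libraries did not overlap, and Kit and Crabp1 among them are gate genes. Sohlh2 averaged 45.1 ± 10.9 against 22.1 ± 15.9 and overlapped, and Sohlh1 stood at 128 ± 47.5 against 103 ± 62.8. Gm4969 had no UMI in the undifferentiated-gene barcodes of any library and averaged 19.3 ± 16.5 in Stra8 barcodes.

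Meiotic entry genes summed to 3154 ± 858 CPM in Stra8 and 1643 ± 114 in undifferentiated-gene barcodes. The libraries did not overlap for this sum. S phase genes summed to 3041 ± 167 against 2188 ± 466, with overlap. Ribosomal protein genes went the other way, at 143091 ± 19256 against 186733 ± 26017, also with overlap. Mitochondrially encoded mRNAs stood at 69109.9 ± 7389 against 72845.7 ± 15226, cholesterol synthesis genes at 1142 ± 120 against 1110 ± 196 and fatty acid oxidation genes at 891 ± 61.1 against 944 ± 109, so these 3 sums differed by less than the spread between libraries.

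**Figure D4:**
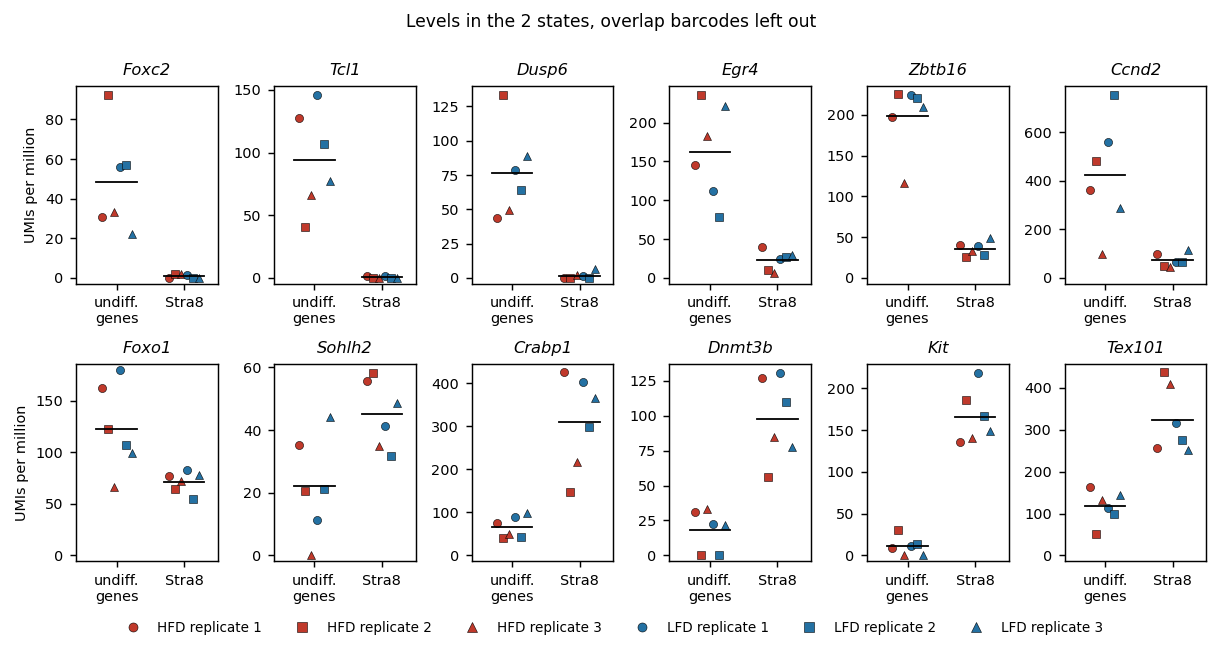
CPM of 12 genes in undifferentiated-gene and Stra8 barcodes without the overlap barcodes, 1 symbol per library, with black bars at the mean of 6. Foxc2, Tcl1 and Dusp6 lie near 0 in Stra8 barcodes, and Kit lies at 0 to 30.7 in undifferentiated-gene barcodes and at 136 to 219 in Stra8 barcodes.

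The diet comparison asked whether 2 weeks of HFD changed the share or the transcripts of spermatogonia. The libraries labelled HFD held 177, 78 and 74 spermatogonia, or 1.78, 0.960 and 1.00% of their barcodes, and those labelled LFD held 124, 122 and 77, or 1.87, 1.10 and 1.34%. The groups overlapped. The difference was -0.189 percentage points (1.25 ± 0.464% against 1.44 ± 0.395%, exact permutation p = 0.5, two-sided, where 3 libraries against 3 cannot go below 0.1). The exact 95% binomial interval of a single library ran from 1.53 to 2.06% in HFD replicate 1 and from 0.759 to 1.20% in HFD replicate 2, for counting error only. Shares of barcodes cannot tell fewer spermatogonia from more of the other cells. Leaving out LFD replicate 1 turned the difference to 0.0280 points.

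The other shares gave no separation of the diets either. The mitochondrial mRNA share averaged 6.18 ± 0.592% under the HFD label and 5.84 ± 1.21% under the LFD label (p = 0.8, exact permutation). It was higher by 0.305 points within replicate 1 and by 0.355 points within replicates 2 and 3, and the difference turned to -0.243 points without LFD replicate 2. The X-linked share was 1.86 ± 0.117% against 1.71 ± 0.120% (exact permutation p = 0.3) and the ribosomal protein share 12.8 ± 3.11% against 14.2 ± 1.26% (exact permutation p = 0.6). Stra8 barcodes made up 37.9, 50 and 64.9% of spermatogonia in the libraries labelled HFD and 49.2, 47.5 and 33.8% under the LFD label (p = 0.4, exact permutation). Over these 5 comparisons no adjusted p was under 0.75. HFD replicate 1 lay on the opposite side of its group for the last 2 shares, with a ribosomal difference of 1.23 points within replicate 1 and -2.72 within replicates 2 and 3.

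Counts summed per library were tested gene by gene with edgeR's quasi-likelihood test. Of 11418 genes tested, 0 (0%) had an adjusted p under 0.05, and DESeq2 called 0 as well. At an unadjusted p under 0.05 there were 95 (0.832%). All 3 libraries of a diet lay on one side of the other 3 in 601 genes (5.26%).

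The 6 genes with the smallest p are given by rule, and each had an edgeR adjusted p of 1.00. Serinc1, a serine incorporator gene of cell membranes, measured 52.3, 64.9 and 71.7 CPM in the libraries labelled HFD and 32.2, 35.5 and 42.2 in those labelled LFD (log2 difference 0.80 ± 0.22, SE). Tuba8, an alpha-tubulin gene, measured 13.9, 16.4 and 10.1 against 3.39, 6.76 and 6.66 (1.33 ± 0.41). The zinc finger gene Zfp788 lay between 17.3 and 19.0 against 6.76 to 10.7, and Kdm6bos, an antisense transcript, averaged 17.8 against 6.93 and cannot be told from its partner where strand is not resolved. Gm47283 was lower, at 28.2 against 87.1 (-1.65 ± 0.44), as was Gm21887, at 3.35 against 14.9 (-2.43 ± 0.68). Both are unnamed gene models that may share reads with near-identical copies.

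Gene lists showed no call either. All 10 gate genes were tested, 0 were called and their median log2 difference was -0.22, against 0.03 over all genes tested. The groups did not overlap in 1 of these 10 (Kit) and in 5.26% of all genes tested, the share to set beside each count of genes apart that follows. Of the undifferentiated list 12 genes were tested with a median of -0.27 and 1 of 12 apart, of the retinoic acid pathway 11 with -0.29 and 3 apart, and of the differentiating list 5 with -0.27 and 0 apart. The meiotic entry list had 19 genes tested, a median of 0.25, 15 positive differences and 2 apart. The sex-linked list had 16 tested, a median of 0.28 and 5 apart, where 5.26% of all genes were apart, and none of the 5 was called.

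Metabolic lists lay near the median of all genes. The 13 mitochondrially encoded mRNAs had a median of 0.08, the 20 fatty acid oxidation genes tested -0.00, the 20 cholesterol genes 0.05 and the 15 stress genes -0.05, with 0 called in each. Ribosomal protein genes had a median of -0.11 (82 tested) and nuclear respiratory chain genes -0.10 (81 tested). The 2 Sertoli markers tested had a median of 1.94, with HFD replicate 1 holding the highest Sertoli sum, and their part in other differences was not tested.

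The libraries labelled HFD did not form a group by base composition. Over 11411 genes, the deviation of each library from the 6-library mean was related to the GC content of the gene, with a Spearman correlation across genes of 0.31 in HFD replicate 1, 0.23, 0.13 and 0.20 in the libraries labelled LFD, and -0.34 and -0.31 in HFD replicates 2 and 3. Genes are not independent, so these are descriptions. The sign in HFD replicate 1 was that of the libraries labelled LFD. Leaving it out left edgeR at 0 calls among 11407 genes. Leaving out both it and the overlap barcodes, an alternative chosen after the data were seen, gave 122 calls among 9821 genes (1.24%), 36 higher and 86 lower, with a median GC content of 41.0% and 56.9%. An offset for GC content in that fit reduced them to 2, Mrps5 and Gm26737. In 16 of the 122, HFD replicate 1 lay beyond the libraries labelled LFD on the same side. The share over all genes tested is not given, so nothing is read from this count.

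**Figure D5:**
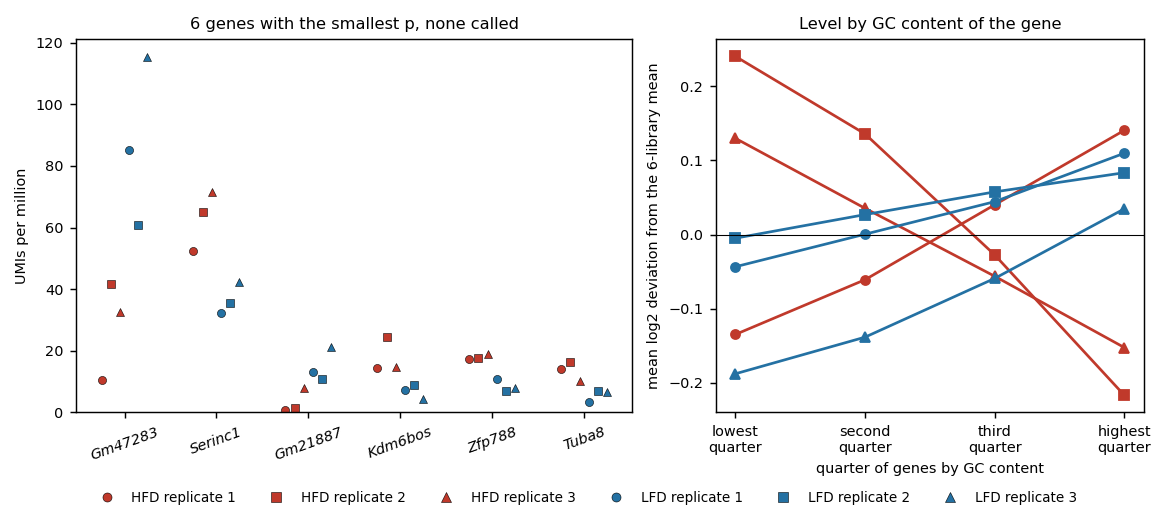
Left, CPM in spermatogonia of the 6 genes with the smallest p between the diets, 1 symbol per library. Right, mean log2 deviation of each library from the 6-library mean in 4 equal bins of genes by GC content, where HFD replicates 2 and 3 fall from left to right and the other 4 libraries rise.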

How the data were processed

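Testicular cells of 6 libraries (3 HFD, 3 LFD) were captured on the 10x Genomics droplet platform with 10000 cells targeted per library. The labels name version 2 of the library kit and the study's methods a later one. The authors aligned reads to mm10 and counted UMIs with Cell Ranger 6.0.1, and the deposited matrices hold raw counts of 32285 genes per barcode, not normalized. Libraries held 5753 to 11095 barcodes and 39196921 to 95845514 UMIs. The members and gene lists were chosen with earlier results of these data known.

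The gate was applied to each barcode in Python 3.11.15 with scipy 1.17.1, numpy 2.4.6 and pandas 2.3.3. Early meiotic barcodes (989) held over 3 UMIs of Meiob, Dmc1 and Prss50 and at most 2 of Piwil1, pachytene barcodes (2447) over 2 of Piwil1, and round spermatid (3311) and Sertoli (88) barcodes at least 10 UMIs of their markers, all with at least 3000 UMIs and under 2% protamine UMIs. Counts were summed per library, so the library was the replicate. These sums entered edgeR 4.0.16 under R 4.3.3 (quasi-likelihood, TMM, default low-count filter, Benjamini-Hochberg adjusted p under 0.05), with DESeq2 1.42.0 as an alternative. Standard errors came from the F value. Shares were compared by exact permutation (diets) and exact sign-flip tests (stages). The tests were checked on simulated data. Leading genes had at least 100 UMIs and were ranked by the log2 ratio of levels with an offset of 5 CPM. The text names all gate genes, the 20 first leading genes and, with no diet call, the 6 genes of smallest p. Of each list it names the 4 most abundant genes and, for the undifferentiated, differentiating, retinoic acid, meiotic entry and sex-linked lists, all detected ones. Markers of other cells are given as sums. Some genes that this rule names are not reported here. Positions and GC content came from GENCODE annotation of GRCm38, which matched 32235 genes. The kit counts transcripts at the end of the RNA, so CPM (UMIs per 1000000) were not divided by gene length. Alternatives changed the gate, depth minimum, filter, normalization, GC offset, replicate block and libraries.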

Additional observations from a re-analysis of the deposited data

How the results depend on the processing

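No library, gate or filter alternative fixed at the outset gave a diet call among genes, and 0 genes were called with a replicate block (247 at an unadjusted p under 0.05). Same-numbered libraries correlated at -0.0125, 0.593 and 0.289 in their deviations from the group means, and differently numbered ones between -0.613 and 0.459. Whether libraries of the same number shared a batch was not tested. With a replicate block the barcode share differed by -0.189 points (lower under the HFD label in all 3 pairs, exact sign-flip p = 0.25, the smallest that 3 pairs allow) and the mitochondrial share by 0.338 points (exact sign-flip p = 0.5). Unadjusted calls ran from 46 to 940 over the planned edgeR alternatives, and the 122 and 2 calls without the overlap barcodes and HFD replicate 1 came from settings added after the data were seen. Leaving out 1 library at a time moved the diet difference in barcode share between -0.457 and 0.0280 points and in mitochondrial share between -0.243 and 0.962 points. The same step moved the mitochondrial difference from early meiotic barcodes between -0.147 and 0.471 points, turned by LFD replicate 3, the X-linked one between -0.158 and -0.0754 and the ribosomal one between 2.32 and 2.92. Against pachytene barcodes it gave 1.93 to 2.69 (mitochondrial), 1.55 to 1.68 (X-linked) and 6.37 to 7.43 points (ribosomal), and with 5 libraries the exact test cannot reach 0.05. With at least 4 gate genes, the mitochondrial (0.661 points) and ribosomal (3.66) differences from early meiotic barcodes and the X-linked (1.68) and ribosomal (7.98) differences from pachytene barcodes passed 0.05 after adjustment. With at least 5000 UMIs, so did the ribosomal difference from early meiotic barcodes (2.54) and all 3 from pachytene barcodes (2.57, 1.60 and 6.85). Without the overlap barcodes, or without the 5% of spermatogonia with most UMIs, the mitochondrial (1.33 and 1.25) and ribosomal (4.14 and 3.93) differences from early meiotic barcodes and those from pachytene barcodes (mitochondrial 3.41 and 3.34, X-linked 1.74 and 1.73, ribosomal 8.46 and 8.25) passed it, and the X-linked difference from early meiotic barcodes turned to 0.0288 and 0.0112. With barcodes weighted equally, the values were 1.26 and 2.92 for mitochondrial and ribosomal shares against early meiotic barcodes and -1.94, 1.68 and 7.83 for the 3 shares against pachytene barcodes. All but the -1.94 passed. The settings without the overlap barcodes and without the 5% with most UMIs trimmed spermatogonia only, not the later stages. The causes were not tested. The number of spermatogonia per library, 74 to 177, limits the detection of rare transcripts.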
